A study of Mus musculus with 8 samples.

Results

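Zinc is stored with insulin in the secretory granules of beta cells, and islets carry genes that move, bind and sense the metal. The 10 genes described here, 2 metallothioneins and 8 zinc transporters, were taken from a list by name and were all found in the deposited table of 13725 genes. All 10 passed the filter on low values, which kept 12231 genes for testing. The RNA came from pancreatic islets of NOD mice, which become diabetic through autoimmunity, all females aged 10 weeks. One group had received PAHSA, lipids in which palmitic acid is esterified to hydroxy stearic acid (spelled PASHA in the sample labels), and the other vehicle. Both groups share the NOD genotype, and there were 4 PAHSA libraries (numbered 1, 2, 3 and 4) and 4 Vehicle libraries (numbered 1, 3, 4 and 5). The extraction protocol speaks of islets pooled from 2 mice per sample, whereas the design text speaks of 4 mice per group. It is therefore unclear whether a library stands for 1 mouse or a pool, so p-values speak of the spread among libraries.

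Members of the Slc30 family (zinc exporters) carry zinc out of the cytosol, either across the plasma membrane or into organelles. Members of the Slc39 family carry it in the opposite direction, into the cytosol. Metallothioneins are small cysteine-rich proteins that bind zinc in the cytosol, and the zinc-sensing factor MTF1, encoded by Mtf1, switches on the genes Mt1, Mt2 and Slc30a1 through metal response elements (MREs) in their promoters.

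The promoters of those 3 genes and of Slc30a5 are shown because their zinc-related motifs differ between the genes. They run from 250 bases before to 50 bases after the RefSeq transcription start, on the gene's strand, in GRCm38.p6. They lie at chr8:94178839-94179138 (Mt1, plus strand), chr8:94172368-94172667 (Mt2, plus strand), chr1:191906531-191906830 (Slc30a1, plus strand) and chr13:100833378-100833677 (Slc30a5, minus strand). Capitals mark the MRE core, TGCACNC or TGCGCNC on either strand, and in Slc30a5 also a paired element described below.
Mt1: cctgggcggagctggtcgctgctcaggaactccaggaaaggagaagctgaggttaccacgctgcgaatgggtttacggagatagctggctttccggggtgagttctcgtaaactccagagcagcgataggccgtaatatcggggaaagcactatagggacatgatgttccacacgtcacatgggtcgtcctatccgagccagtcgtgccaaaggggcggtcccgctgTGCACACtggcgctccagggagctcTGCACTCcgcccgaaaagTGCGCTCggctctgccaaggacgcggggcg
Mt2: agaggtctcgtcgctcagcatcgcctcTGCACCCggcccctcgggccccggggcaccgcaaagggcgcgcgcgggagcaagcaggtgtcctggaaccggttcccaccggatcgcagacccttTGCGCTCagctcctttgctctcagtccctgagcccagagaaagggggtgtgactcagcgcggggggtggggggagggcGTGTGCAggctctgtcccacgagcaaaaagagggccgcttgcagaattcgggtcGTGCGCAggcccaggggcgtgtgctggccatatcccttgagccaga
Slc30a1: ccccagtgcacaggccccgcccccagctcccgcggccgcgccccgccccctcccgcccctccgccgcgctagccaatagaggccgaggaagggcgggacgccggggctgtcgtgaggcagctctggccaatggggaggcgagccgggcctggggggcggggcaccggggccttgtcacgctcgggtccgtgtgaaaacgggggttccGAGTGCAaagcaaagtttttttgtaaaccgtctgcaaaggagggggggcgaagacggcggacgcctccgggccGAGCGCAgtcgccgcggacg
Slc30a5: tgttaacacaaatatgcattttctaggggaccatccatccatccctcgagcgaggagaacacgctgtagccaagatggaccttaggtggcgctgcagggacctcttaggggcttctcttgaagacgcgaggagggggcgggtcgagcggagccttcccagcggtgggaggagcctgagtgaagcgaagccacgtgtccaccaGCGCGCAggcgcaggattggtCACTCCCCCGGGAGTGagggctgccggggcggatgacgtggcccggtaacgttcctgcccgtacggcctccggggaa

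The Mt1 window held 3 MRE cores, all on the gene's strand. The Mt2 window held 4, and the Slc30a1 window held 2, both on the other strand. Of 32817 promoter windows of the same length, 25.7% held at least 1 core, 7.12% at least 2, 1.97% at least 3 and 0.518% at least 4. The Slc30a5 window held 1 core and, 12 to 27 bases before the start, CACTCCCCCGGGAGTG, which is CACTCC and its reverse complement GGAGTG set 4 bases apart. An element of this form has been described in the human SLC30A5 gene as a zinc-responsive repressor site. It was searched for after the mouse sequence had been read, with a gap of up to 20 bases, and 20 of the 32817 windows held it (0.0609%). It did not overlap the MRE core. The windows of Slc30a6, Slc30a7, Slc30a9 and Slc39a7 held neither motif, and a window was available for 8 of the 10 genes. The GENCODE M21 start lies 46 bases downstream of the RefSeq start for Mt2, 7 bases upstream for Mt1 and 14 bases upstream for Slc30a1, and the 2 starts coincide for Slc30a5. These GENCODE starts are the outer ends of the genes, and Mt1 has 3 protein-coding transcripts there. Cores outside the windows, as near a start further downstream, were not counted. The map of motif positions sets these windows side by side.

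**Figure D1:**
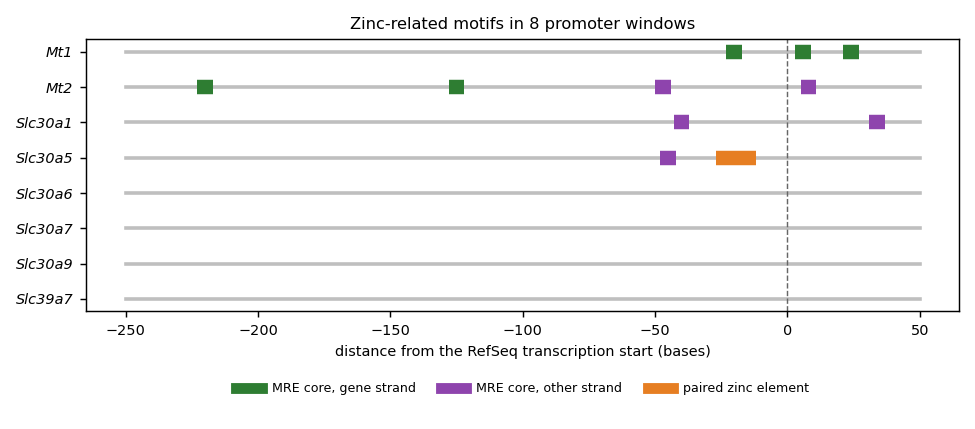
Positions of MRE cores on the gene's strand (green) and on the other strand (purple), and of the paired zinc element (orange), along 8 promoter windows; the x axis is the distance from the RefSeq start in bases. Mt1, Mt2, Slc30a1 and Slc30a5 hold matches, and the 4 lower windows hold none.

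Per length of transcript, the 2 metallothioneins stood far above the 8 transporters of this list. Not every zinc transporter is on it, so the ranking covers these genes alone. Levels were taken as CPM (counts scaled to a common library total) per kilobase of the principal GENCODE transcript. On that scale Mt1 was at 3791 ± 892 in PAHSA and 3268 ± 465 in Vehicle libraries (SD, n = 4 each). Mt2 was at 983 ± 261 in PAHSA and 833 ± 154 in Vehicle libraries. The highest of these 8 transporters was Slc39a7, which releases zinc from the endoplasmic reticulum and Golgi into the cytosol. It was at 176 ± 13.2 in PAHSA and 195 ± 6.31 in Vehicle libraries. Slc30a5 followed at 35.7 ± 2.96 in PAHSA and 41.9 ± 2.72 in Vehicle libraries. The ranges over the 8 libraries did not overlap between Mt1 and Mt2, Mt2 and Slc39a7, or Slc39a7 and Slc30a5. Below that the order by mean was Slc39a6, Slc30a6, Slc30a9, Slc30a7, Slc39a14 and Slc30a1, and each neighbouring pair from Slc30a5 downward overlapped. Slc30a1, the plasma membrane exporter, was lowest, at 1.73 ± 0.676 in PAHSA and 1.36 ± 0.336 in Vehicle libraries. With the longest transcript in place of the principal one, only Mt1 moved among the 10 genes, to 1918 ± 451 in PAHSA and 1654 ± 235 in Vehicle libraries, and it stayed first.

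**Figure D2:**
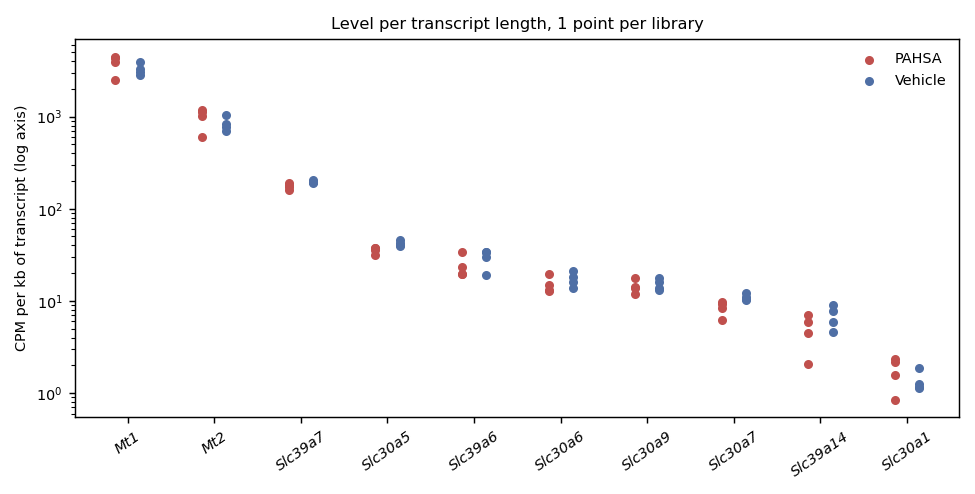
Level of the 10 genes in CPM per kilobase of principal transcript (log axis), 1 point per library, PAHSA in red and Vehicle in blue. Mt1 and Mt2 lie above the 8 transporters shown, and Slc39a7 lies above the other 7.

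Between the treatments no gene of the 10 passed. In limma, 0 of 12231 genes (0%) had an adjusted p under 0.05, with 894 at an unadjusted p under 0.05, and 0 passed without a mean-variance trend, with 803 at that unadjusted level. Of the 10 genes 3 were higher in PAHSA (Mt1, Mt2 and Slc30a1) and 7 were lower, whereas 50.9% of all genes tested were lower. The median difference was -0.17 on the log2 scale over the 10 genes and -0.006 over all genes tested. At an unadjusted p under 0.05, 2 of the 10 were lower (Slc30a5 and Slc30a7) and 0 higher, against 4.29% and 3.02% of all genes (7.31% in either direction). Without the mean-variance trend 0 of the 10 reached that level. With the acinar mean in the fit 3 of the 10 did (Mt1, Mt2 and Slc39a6), as did 877 of all 12231 genes. Neither Slc30a5 nor Slc30a7 reached it there, although the difference of Slc30a7 was -0.395 (SE 0.196), against -0.394 (SE 0.153) without the acinar mean. In Slc30a5 and Slc30a7 all PAHSA libraries lay below all Vehicle libraries, a pattern found in 1.95% of all genes (4.01% for either side). The number of the 10 genes at an unadjusted p under 0.05 was 0 to 4 when single libraries were left out. It was 0 without PAHSA replicate 1 or Vehicle replicate 5, 4 without PAHSA replicate 4, 2 without PAHSA replicate 3 and 1 without any other library.

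**Figure D3:**
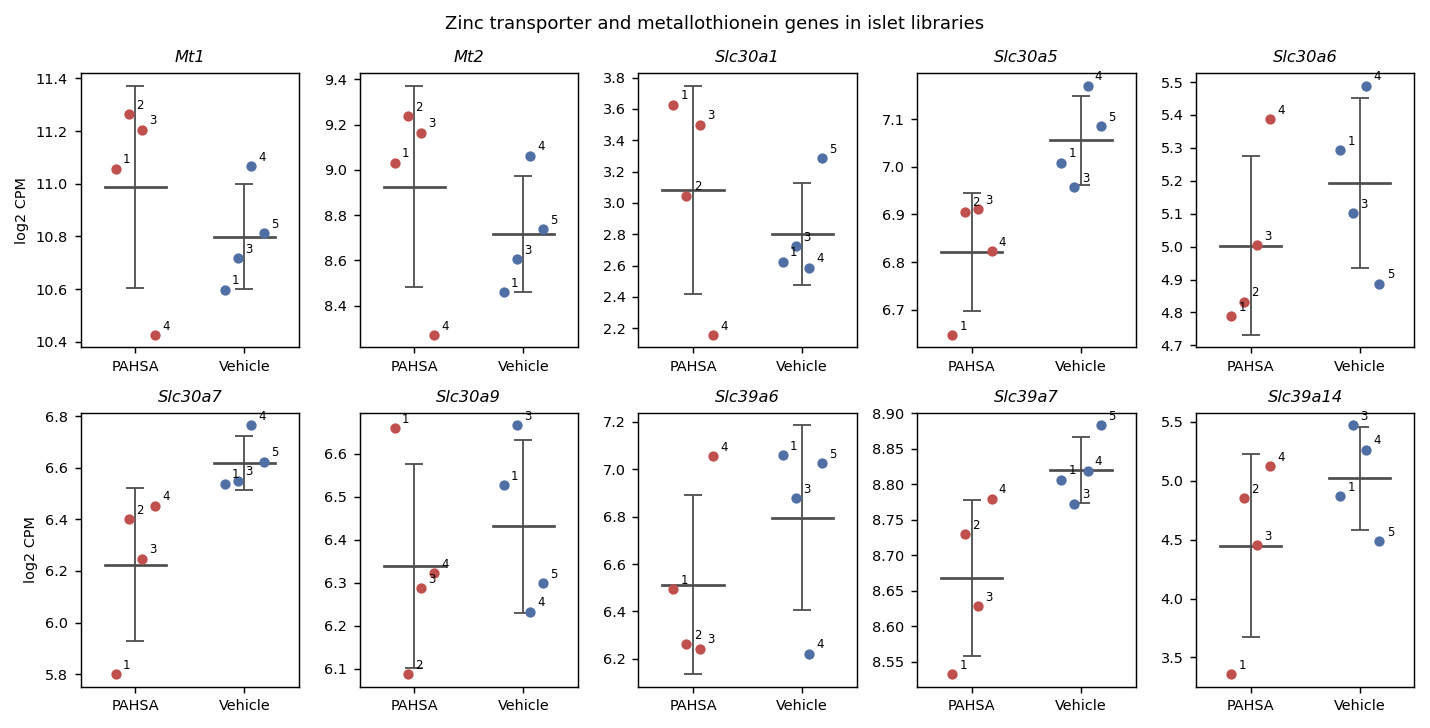
Log2 CPM of the 10 genes in each PAHSA (red) and Vehicle (blue) library, labelled by replicate number; horizontal lines are group means and error bars are SD (n = 4). The groups do not overlap in Slc30a5 and Slc30a7, and PAHSA replicate 4 lies below every other library in Mt1, Mt2 and Slc30a1.

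The differences are PAHSA minus Vehicle in log2 CPM, and values of single libraries are given in the order of replicates 1, 2, 3 and 4 for PAHSA and 1, 3, 4 and 5 for Vehicle. The recovered estimated counts behind these values ran from 178 for Slc30a1 to 93711 for Mt1 in a library, out of totals of 35356278 to 39359123 in PAHSA and 34461742 to 45236238 in Vehicle libraries. PAHSA replicate 1 was the lowest of the 8 libraries for 5 of the 10 genes (Slc30a5, Slc30a6, Slc30a7, Slc39a7 and Slc39a14) and for 14.8% of all genes tested. PAHSA replicate 4 was lowest for 3 (Mt1, Mt2 and Slc30a1) and for 14.4% of all genes. Acinar markers, genes of the digestive gland around the islets, were lower on average in PAHSA: 17 of 17 tested markers were lower, of which 13 had an unadjusted p below 0.05 and 0 passed. Their part in the results below was not tested except by the covariate fits. Their summed level ran from 507 CPM (replicate 4) to 17058 CPM in PAHSA and from 11230 to 45235 CPM in Vehicle libraries. Of the other marker lists, 6 of 8 beta cell markers were higher in PAHSA (3 at an unadjusted p below 0.05), 4 of 5 duct markers were lower (3 below that level) and 7 of 7 stellate cell markers were lower (1 below that level), none past the threshold. Their part was not tested. Beta cell markers took 14.1% to 17.5% of CPM in PAHSA and 13.7% to 18% in Vehicle libraries. In bulk tissue, fewer cells of a type and less RNA per cell cannot be told apart.

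The exporters Slc30a5, Slc30a6 and Slc30a7 serve the early secretory pathway, and none of them passed. Slc30a7, which carries zinc into Golgi vesicles, had log2 CPM values of 5.80, 6.4, 6.25 and 6.45 in the PAHSA libraries, against 6.54, 6.55, 6.77 and 6.62 in the Vehicle libraries. All 4 PAHSA libraries lay below the Vehicle libraries, with replicate 1 lowest. The difference was -0.39 (SE 0.15, 95% confidence interval -0.73 to -0.06), which is 0.761 times the Vehicle level, and it did not pass (limma adjusted p = 0.671). Without PAHSA replicate 1 it was -0.25 (limma adjusted p = 0.778). Slc30a7 (ENSMUSG00000054414) lies on chromosome 3 from 115938973 to 116007406 in GRCm38.

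Slc30a5, which pairs with the Slc30a6 product to load zinc into the secretory pathway, had log2 CPM values of 6.65, 6.91, 6.91 and 6.82 in the PAHSA libraries, against 7.01, 6.96, 7.17 and 7.09 in the Vehicle libraries. The gap between the highest PAHSA library (6.91) and the lowest Vehicle library (6.96) was small. The difference was -0.23 (SE 0.11), or 0.851 times the Vehicle level (limma adjusted p = 0.684). Adjusted for the acinar mean it was -0.17 (limma adjusted p = 0.823), and with PAHSA replicate 4 left out as well it was -0.11. Slc30a5 (ENSMUSG00000021629) lies on chromosome 13 from 100802648 to 100833427.

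The partner gene Slc30a6 did not separate the groups. It had log2 CPM values of 4.79, 4.83, 5.0 and 5.39 in the PAHSA libraries, against 5.29, 5.10, 5.49 and 4.89 in the Vehicle libraries. PAHSA replicate 4 was within the upper Vehicle values and Vehicle replicate 5 within the PAHSA range. The difference was -0.19 (SE 0.20, limma adjusted p = 0.864). It was -0.09 without Vehicle replicate 4 and -0.12 without PAHSA replicate 1, but -0.32 without PAHSA replicate 4 and -0.29 without Vehicle replicate 5. Slc39a7, which works in the opposite direction in the same compartments, had log2 CPM values of 8.53, 8.73, 8.63 and 8.78 in the PAHSA libraries, against 8.81, 8.77, 8.82 and 8.88 in the Vehicle libraries. Only PAHSA replicate 4 reached the Vehicle range. The difference was -0.15 (SE 0.08; limma adjusted p = 0.723), and -0.05 under quantile normalization. Slc30a6 (ENSMUSG00000024069) lies on chromosome 17 from 74395608 to 74424221, and Slc39a7 (ENSMUSG00000024327) on the same chromosome from 34028269 to 34031682.

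The k-mer content of these genes sets how well their reads can be assigned. Of all 31-base words in the protein-coding transcripts of Slc39a7, 81.8% also occur in Gm20427, an annotated transcript on the same strand. For Slc30a7 19.5% are shared with other genes, mostly with 2 processed pseudogenes annotated on the opposite strand of the same locus, Gm6649 and Gm43106. Gm20427, Gm6649 and Gm43106 are not in the deposited table, so their own levels could not be looked at. For Slc30a5 the share was 0%, for Slc30a6 3.55%. The library kit does not mark the strand, so reads from sequence that genes on opposite strands share cannot be told apart.

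The metallothioneins varied together from library to library, and their group difference was smaller than that spread. Mt1 had CPM values of 2130, 2458, 2360 and 1376 in the PAHSA libraries, against 1550, 1683, 2146 and 1799 in the Vehicle libraries. PAHSA replicates 2 and 3 were above every Vehicle library, replicate 1 was within their range and replicate 4 was below all of them. The means were 10.99 ± 0.38 log2 CPM in PAHSA and 10.80 ± 0.20 in Vehicle libraries (SD, n = 4 each), a difference of 0.19 (SE 0.17; limma adjusted p = 0.845). Single libraries moved it: it was 0.38 without PAHSA replicate 4 (limma adjusted p = 0.499), 0.10 without PAHSA replicate 2, and 0.12 without PAHSA replicate 3 or Vehicle replicate 1.

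Mt2 had CPM values of 523, 604, 574 and 309 in the PAHSA libraries, against 352, 390, 534 and 427 in the Vehicle libraries. The libraries stood in the same order as for Mt1 within each group. The difference was 0.21 (SE 0.20; limma adjusted p = 0.850). It was 0.43 without PAHSA replicate 4 (limma adjusted p = 0.515) and 0.33 without Vehicle replicate 4, but 0.11 without PAHSA replicate 2, 0.13 without PAHSA replicate 3 and 0.12 without Vehicle replicate 1. Corrected for transcript length, Mt1 was above Mt2 by 3.79, 3.79, 3.83 and 4.15 times in PAHSA replicates 1, 2, 3 and 4 and by 4.10, 4.02, 3.74 and 3.92 times in Vehicle replicates 1, 3, 4 and 5. This ratio moved by 0.15 on the log2 scale over the 8 libraries, whereas Mt1 itself moved by 0.84 and Mt2 by 0.97. The genes lie side by side on chromosome 8 in GRCm38, Mt2 (ENSMUSG00000031762) from 94172664 to 94173568 and Mt1 (ENSMUSG00000031765) from 94179082 to 94180327, on the same strand with 5513 bases between them. Their transcripts share 0 words of 31 bases, so reads of 1 gene are not shared out to the other by such words. Of the Mt2 words 58.1% are shared, nearly all with the antisense gene Gm45774, which is not in the deposited table.

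Across libraries both metallothioneins followed the acinar markers within each group. In PAHSA the mean of the 17 acinar markers was highest in replicate 2 (9.42 log2 CPM), then in replicates 3 (8.84), 1 (7.47) and 4 (4.56), and in Vehicle in replicate 4 (10.82), then in replicates 5 (10.18), 3 (8.89) and 1 (8.87). Mt1 and Mt2 stood in exactly this order in both groups, that is in 12 of 12 within-group pairs of libraries. The same held for 71 genes, 0.580% of those tested. Against beta and stellate cell markers the metallothioneins had the same order in 4 of 12 pairs. Against alpha cell markers it was 6 of 12, and against duct and macrophage markers 8 of 12. In a fit that includes the acinar mean, the difference of Mt1 was 0.57 (SE 0.09) and that of Mt2 0.65 (SE 0.11). Both had a limma adjusted p of 0.358, short of the threshold. It was the smallest value in that fit, and other genes shared it. With PAHSA replicate 4 also left out, a choice made after seeing the data, the differences of Mt1 and Mt2 were 0.55 and 0.64. The limma adjusted p was 0.530 for both. The covariate itself was lower in PAHSA on average, so it and the treatment are not independent in these fits.

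**Figure D4:**
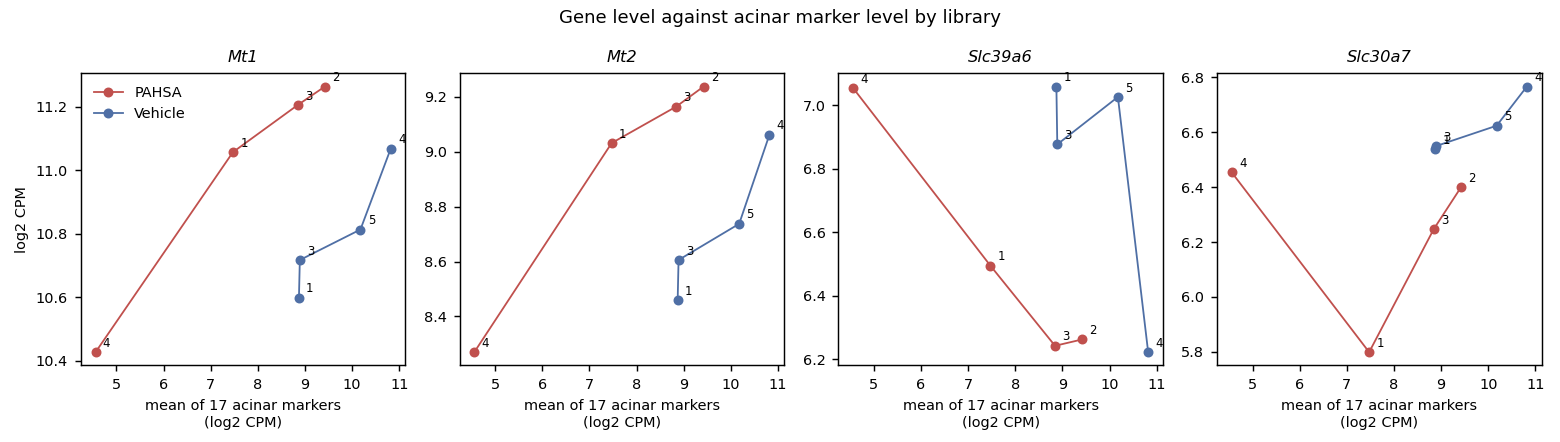
Log2 CPM of Mt1, Mt2, Slc39a6 and Slc30a7 (y axis) against the mean log2 CPM of 17 acinar markers (x axis) in each PAHSA (red) and Vehicle (blue) library, labelled by replicate number and joined in order of the x axis within a group. Mt1 and Mt2 climb with the acinar mean in both groups, and Slc39a6 mostly runs downward. In Mt1 and Mt2, PAHSA replicate 3 (acinar mean 8.84) lies above Vehicle replicates 1 (8.87) and 3 (8.89). PAHSA replicate 2 also lies above them, but its acinar mean is higher (9.42).

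Slc30a1, the third of the genes with MRE cores named above, did not follow the metallothioneins throughout. It had log2 CPM values of 3.63, 3.05, 3.50 and 2.16 in the PAHSA libraries, against 2.62, 2.72, 2.59 and 3.29 in the Vehicle libraries. PAHSA replicate 4 was lowest, as for Mt1 and Mt2, but Vehicle replicate 4, which was highest of its group for both metallothioneins, was lowest of its group for Slc30a1. The difference was 0.28 (SE 0.39; limma adjusted p = 0.903). It was 0.59 without PAHSA replicate 4, 0.10 without PAHSA replicate 1, 0.14 without PAHSA replicate 3, and 0.44 without Vehicle replicate 5. Slc30a1 (ENSMUSG00000037434) lies on chromosome 1 from 191906767 to 191913247. Of its words of 31 bases 8.38% are shared with the antisense gene 1700034H15Rik, which is not in the deposited table. Mtf1 itself, which encodes the sensor, averaged 5.32 ± 0.06 in PAHSA and 5.35 ± 0.36 log2 CPM in Vehicle libraries (SD, n = 4 each), a difference of -0.04 (SE 0.19).

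The genes with profiles nearest to Mt1, by the root mean square distance of log2 CPM centred per gene over the 8 libraries, were Mt2 (0.053), Banf1 (0.11), Bmi1 (0.11), Kcnk16 (0.113) and Uqcc2 (0.123). The median distance to 11480 genes was 0.443. Those nearest to Mt2 were Mt1 (0.053), Tmsb15b1 (0.127), Kcnk16 (0.133), Smim11 (0.139) and Bmi1 (0.14), with a median of 0.48. Kcnk16, which encodes a potassium channel of islet cells, was on both lists, with a difference of 0.27 (SE 0.19; limma adjusted p = 0.784). Among the nearest to Slc30a7 were Mif (0.086), which encodes a cytokine, and Ptpn2 (0.092), a phosphatase gene. Mif differed by -0.51 (SE 0.14) and Ptpn2 by -0.37 (SE 0.17), neither past the threshold. The distance takes in the group difference, so genes chosen as near tend to have like differences by construction. Nearest to Slc30a5 were Cltb (0.056), a clathrin light chain gene, Uba1 (0.06), the gene of the ubiquitin-activating enzyme, and Alg2 (0.063), a mannosyltransferase gene of N-glycosylation.

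Slc39a14 and Slc39a6, importers of the plasma membrane, varied more within each group than between groups. Across the PAHSA libraries this held for each of the 10 genes. Slc39a14, which brings in zinc, iron and manganese, had log2 CPM values of 3.36, 4.85, 4.45 and 5.13 in the PAHSA libraries, against 4.87, 5.47, 5.26 and 4.49 in the Vehicle libraries. It had the widest span of the 10 genes, 4.34-fold from PAHSA replicate 1 to Vehicle replicate 3, and the groups overlapped. The difference was -0.58 (SE 0.37; limma adjusted p = 0.758), and -0.21 without PAHSA replicate 1. Slc39a14 (ENSMUSG00000022094) lies on chromosome 14 from 70303469 to 70351425.

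Slc39a6, a zinc importer of the LIV-1 group, had log2 CPM values of 6.49, 6.26, 6.24 and 7.05 in the PAHSA libraries, against 7.06, 6.88, 6.22 and 7.03 in the Vehicle libraries. PAHSA replicate 4 lay with 3 of the Vehicle libraries, and Vehicle replicate 4 with PAHSA replicates 2 and 3. The difference was -0.28 (SE 0.22; limma adjusted p = 0.819). It was -0.46 without PAHSA replicate 4 and -0.47 without Vehicle replicate 4. Within groups Slc39a6 had the order of the acinar markers in only 2 of 12 pairs, as did Slc30a9, and 5.70% of genes had 2 or fewer. Slc39a6 had the order of the beta cell markers in 10 of 12 pairs, and 3.94% of genes had 10 or more. As many pairs or more were matched elsewhere among the 10 genes. Slc30a7 had the order of the macrophage markers in 11 of 12 pairs (1.28% of genes had 11 or more). Slc39a14 had that of the duct and of the stellate cell markers in 10 each (3.97% and 4.77% of genes had 10 or more). In the fit that includes the acinar mean the difference of Slc39a6 was -0.69 (SE 0.19, limma adjusted p = 0.515). Slc39a6 (ENSMUSG00000024270) overlaps Elp2 on the opposite strand of chromosome 18, although their transcripts share 0 words of 31 bases, and Elp2 differed by -0.22 (SE 0.13).

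Slc30a9, which in human cells handles zinc of the mitochondria, had log2 CPM values of 6.66, 6.09, 6.29 and 6.32 in the PAHSA libraries, against 6.53, 6.67, 6.23 and 6.30 in the Vehicle libraries. The groups overlapped over most of their range. Slc30a9 (ENSMUSG00000029221) lies on chromosome 5 from 67306955 to 67358443. The difference was -0.09 (SE 0.15), with a 95% confidence interval from -0.43 to 0.24 (limma adjusted p = 0.920). It was -0.20 without PAHSA replicate 1 and -0.16 without Vehicle replicate 4, but -0.008 without PAHSA replicate 2, -0.014 without Vehicle replicate 3 and -0.06 without Vehicle replicate 1.

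Of 19 other zinc genes on a list, 14 were in the table and 12 were tested, of which 5 were higher and 7 lower in PAHSA, none past the threshold. The 1 gene with an unadjusted p below 0.05 was Slc30a4, which carries zinc into vesicles, with log2 CPM values of 4.35, 4.5, 4.56 and 4.10 in the PAHSA libraries, against 4.92, 4.85, 4.53 and 5.05 in the Vehicle libraries. The groups overlapped by Vehicle replicate 4 alone. The difference was -0.46 (SE 0.20; limma adjusted p = 0.671). Slc39a8, the closest relative of Slc39a14 and likewise a carrier of several metals, differed by 0.52 (SE 0.28), in the opposite direction. Slc39a3 differed by 0.32 (SE 0.24), Tmem163, a vesicular zinc transporter gene, by 0.22 (SE 0.14), and the Golgi importer gene Slc39a9 by 0.16 (SE 0.12). Lower values were found for Slc39a1 at -0.51 (SE 0.39), Slc39a10 at -0.31 (SE 0.71), Slc39a2 at -0.24 (SE 0.56), Slc39a13 at -0.15 (SE 0.31) and Slc39a11 at -0.04 (SE 0.15). Mt3, the third metallothionein gene of the cluster on chromosome 8, differed by 0.04 (SE 0.42). Slc30a2 and Slc39a5 were below the filter, and the other 5 listed genes were not analysed here.

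**Figure D5:**
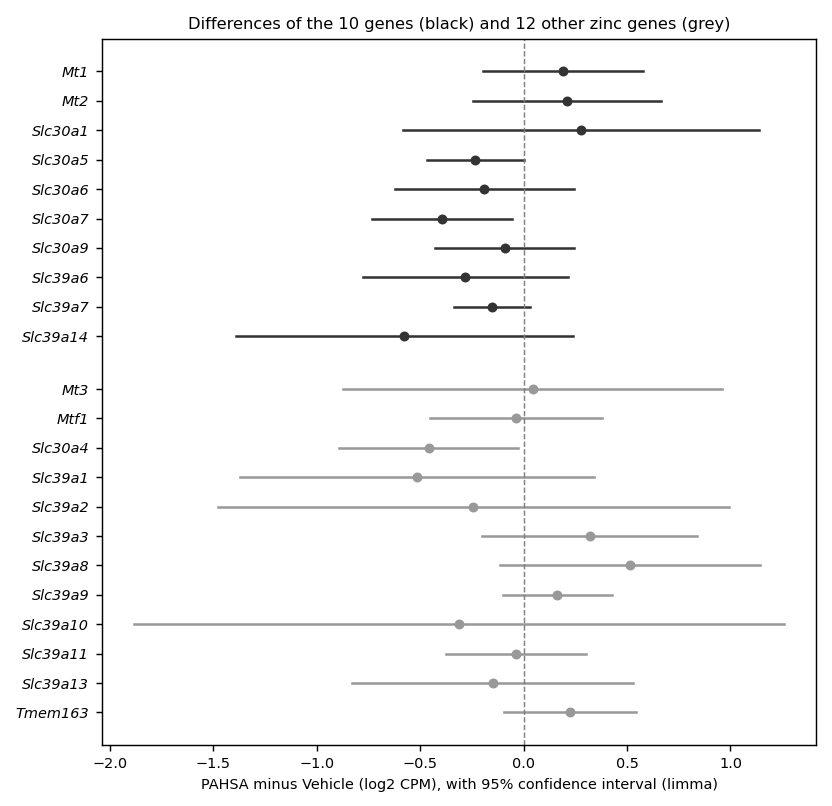
Difference PAHSA minus Vehicle in log2 CPM (x axis) with its 95% confidence interval from limma for the 10 genes (black) and 12 other zinc genes (grey). Most intervals cross 0, and those of Slc30a5, Slc30a7 and Slc30a4 lie below it.

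Genes of iron and manganese handling, with which Slc39a14 shares substrates, were 5 higher and 2 lower of 7, none past the threshold. Ftl1, the ferritin light chain, had log2 CPM values of 11.84, 11.58, 11.59 and 11.57 in the PAHSA libraries, against 11.41, 11.29, 11.47 and 11.39 in the Vehicle libraries. All PAHSA libraries were above all Vehicle libraries (difference 0.26, SE 0.09, limma adjusted p = 0.671). Hamp, which encodes the iron hormone hepcidin, had log2 CPM values of 1.19, 1.81, 2.04 and 1.69 in the PAHSA libraries, against 2.65, 3.01, 3.86 and 2.32 in the Vehicle libraries. All PAHSA libraries were below all Vehicle libraries (difference -1.28, SE 0.44, limma adjusted p = 0.671). Such separation was found in 2.06% of genes upward and 1.95% downward.

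Genes of the interleukin-6 response, which induces Slc39a14 in mouse liver, were 2 higher and 5 lower of 7 tested, none past the threshold. Socs3, a feedback inhibitor of that pathway, had log2 CPM values of 6.5, 7.15, 6.98 and 7.04 in the PAHSA libraries, against 7.35, 7.69, 7.18 and 7.27 in the Vehicle libraries. The groups did not overlap (difference -0.45, SE 0.16, limma adjusted p = 0.671). Il6ra, which encodes the interleukin-6 receptor and was picked after its values were seen, was separated the other way, all PAHSA libraries above all Vehicle libraries (difference 0.45, SE 0.24, limma adjusted p = 0.715). Lcn2, which encodes the secreted protein lipocalin 2, differed by -0.91 (SE 0.35, limma adjusted p = 0.671), with overlapping groups. PAHSA replicate 1 was lowest for Socs3, Lcn2 and, narrowly, Bcl3, as it was for Slc39a14 and for 14.8% of all genes tested. It was the highest library for Il6ra (4.73 log2 CPM) and Saa3 (3.89), which are on the same list. A relation of this list to Slc39a14 was not tested.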

How the data were processed

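Per the labels' protocols, islet RNA was turned into libraries by Nextera XT. The deposited values are log2 CPM for 13725 genes in 8 columns, each matched to a library by name; kallisto and limma were used by the authors, per the submitters' processing notes, and the genome build is not given in the sources used here. The lowest values of each column fit 0 counts with 0.5 added, and estimated counts were recovered from that step only to describe depth. Symbols and coordinates came from GENCODE M21 (GRCm38); 56 identifiers had no symbol. A mean log2 CPM above 0 was required, which left 12231 genes and removed 1494. Groups were compared in R 4.3.3 with limma 3.58.1 (lmFit, eBayes with trend), two-sided. Benjamini-Hochberg adjustment ran over all genes tested, with a threshold of 0.05. The fit was tested on simulated data with far larger differences than those of the 10 genes. That run therefore does not speak for differences of their size. Log2 differences understate the change of weakly expressed genes. Named genes were the 10 members, every tested gene of the other zinc list, the 2 genes with the smallest p of each of 5 context lists, and the nearest profiles (5 for Mt1 and Mt2, 3 for other members at an unadjusted p under 0.05); 1 of these profiles is not reported here. Members and lists were chosen with earlier results of these data known. Promoter sequences are RefSeq's for GRCm38.p6, and 31-base words were counted in GENCODE M21 transcripts on both strands. Alternatives covered filter, trend, pseudocount, normalization, acinar covariate, replicate block and leaving out each library.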

Additional observations from a re-analysis of the deposited data

How the results depend on the processing

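In all 18 alternatives, 1 of them chosen after seeing the data, 0 genes passed over all genes, 0 of the 10 zinc genes and 0 of the other zinc list, and each of the 10 differences kept its direction. The count of all genes at an unadjusted p under 0.05 ran from 669 to 1021. The differences ranged from 0.10 to 0.57 for Mt1, 0.11 to 0.65 for Mt2, 0.10 to 0.70 for Slc30a1, -0.27 to -0.11 for Slc30a5, -0.35 to -0.09 for Slc30a6, -0.47 to -0.25 for Slc30a7, -0.35 to -0.008 for Slc30a9, -0.71 to -0.12 for Slc39a6, -0.19 to -0.05 for Slc39a7 and -0.89 to -0.21 for Slc39a14. Quantile normalization gave 0.46 for Mt1, and the cause was not tested.

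The groups share the numbers 1, 3 and 4, which the labels do not explain. Deviations of same-numbered libraries from their group means had correlations of -0.020, -0.017 and -0.022 across genes, and in none was the best match the library of the same number. With the replicate block on these 6 libraries 0 genes passed, as without it, and Slc39a14 differed by -0.89 in both fits. The lowest estimated count, 178 for Slc30a1, and 4 libraries a group limit what could be seen: the median 95% confidence interval of a difference reached 0.55 to either side.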

Other observations

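Other inducers of metallothionein genes were looked at through lists of their target genes. A relation of these lists to Mt1 or Mt2 was not tested. Of 7 Nrf2 targets, genes of the response to oxidants, 5 were higher and 2 lower in PAHSA, with 0 of them at an unadjusted p under 0.05 in limma. Hmox1, which encodes heme oxygenase 1, had log2 CPM values of 7.38, 6.84, 7.0 and 7.55 in the PAHSA libraries, against 6.98, 6.83, 6.65 and 7.10 in the Vehicle libraries, a difference of 0.30 (SE 0.17). PAHSA replicate 4, lowest for Mt1 and Mt2, was highest for Hmox1. The cystine transporter gene Slc7a11 differed by -1.08 (SE 0.72).

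Of 6 tested genes of the glucocorticoid response, 5 were higher and 1 lower in PAHSA, with 0 at an unadjusted p under 0.05 in limma and a median difference of 0.28. Tsc22d3, a glucocorticoid-induced gene, had log2 CPM values of 5.94, 5.83, 5.76 and 4.83 in the PAHSA libraries, against 5.52, 5.27, 5.11 and 5.16 in the Vehicle libraries. PAHSA replicate 4 was below all other libraries, as for Mt1. The other 3 PAHSA libraries were above every Vehicle library, whereas for Mt1 only PAHSA replicates 2 and 3 were. The difference was 0.32 (SE 0.24), and the clock gene Per1 differed by 0.48 (SE 0.37). PAHSA replicate 4 was the lowest library for no other tested gene of this list. It was narrowly the highest of the 8 libraries for Per1 (3.81 log2 CPM) and Sgk1 (3.50). The 3 subunits of CK2, the kinase that in human cells phosphorylates the Slc39a7 product, were all higher, Csnk2a1 by 0.20 (SE 0.21) and Csnk2a2 by 0.20 (SE 0.22), with 0 at an unadjusted p under 0.05 in limma.

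Slc30a2, a vesicular zinc transporter gene, and Slc39a5 were left out of the tests for low values. Slc30a2 ran from -6.31 to 1.35 log2 CPM in PAHSA and from -3.37 to 2.81 in Vehicle libraries. Slc39a5 was at the lowest value of its library in PAHSA replicates 3 and 4, had 0.49 in PAHSA replicate 1 and 0.77 in PAHSA replicate 2, and was at 0.51 to 2.74 log2 CPM in Vehicle libraries.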
